A study of Oryctolagus cuniculus with 3 samples.

Results

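Aquaporins and carbonic anhydrases were followed through the differentiation of RCE1(5T5), a rabbit corneal epithelial cell line. The 10 genes AQP1, AQP3, AQP5, AQP7, AQP11, CA2, CA8, CA12, CA13 and CA14 were taken by gene name, and all 10 were among the 20536 gene names of the deposited tables. RNA-seq libraries came from 3 stages, 1 library each: on day 4 the culture was non-differentiated, on day 6 it was committed, and by day 10 it was terminally differentiated. At every stage the medium was DMEM-F12-Ham with fetal calf serum, insulin, transferrin, hydrocortisone, triiodothyronine, cholera toxin, adenine and epidermal growth factor. The cells shared the dish with 3T3 feeder cells (mouse fibroblasts) that mitomycin C had stopped from dividing and that EDTA took off before RNA was prepared. Each library held between 10171693 and 12582706 fragments. No stage has a replicate, so spread between cultures is unknown, and stage, day and library cannot be told apart. In bulk RNA, fewer cells of a type and less RNA per cell cannot be told apart either.

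Aquaporins are membrane channels that let water cross the lipid bilayer, and the aquaglyceroporins among them also pass glycerol. Carbonic anhydrases are mostly zinc enzymes that convert carbon dioxide and water to bicarbonate and protons, and they differ in whether they sit in the cytosol, in the mitochondrion or on the cell surface. In the cornea, water and bicarbonate transport keep the tissue thin and clear, and AQP5 and AQP3 are the water channels usually described in its epithelium, whereas AQP1 is known from keratocytes and corneal endothelium.

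Levels are given as CPM, counts per 1000000 fragments after trimmed mean of M values (TMM) scaling, when a gene is compared across stages. TPM, the authors' value per length and depth, is used when genes are compared with each other. Measured genes are those with 1 CPM or more in any library: 6 of the 10 genes, and 12818 genes in all. The words rose and fell are kept for measured genes whose CPM + 1 differed by 2-fold or more, which is 1 on the log2 scale. Ratios of single genes are of CPM without the added 1, and brackets hold 95% Clopper-Pearson intervals, which cover counting error only.

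All 7 corneal epithelial markers looked for were measured, and they did not share 1 course. The 3 used as reference for stage, KRT3, KRT12 and PAX6, were lowest on day 4 and highest on day 10. KRT3, a keratin paired with KRT12, was at 149.6, 954 and 2018 CPM on days 4, 6 and 10. KRT12, a keratin of differentiated corneal epithelium, had 0, 233 and 1281 fragments. PAX6, a regulator of corneal identity, was at 42.2, 127 and 358 CPM in the same order. Of the other 4 markers, 2 were highest on day 6 and 2 on day 4. The basal keratin KRT5 was at 15650, 23374 and 13552 CPM, and the epithelial adhesion molecule EPCAM at 127, 95.1 and 95.3 CPM.

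Of the 10 genes, 4 (AQP5, CA2, CA12 and CA13) rose from day 4 to day 6 and 1 (AQP1) fell, where 8.06% of all measured genes rose and 6.73% fell. In the step from day 6 to day 10, AQP5 and CA2 rose and AQP1 fell, against 8.25% and 7.1% of all measured genes. Over the whole interval the 4 genes of the first step rose and AQP1 fell, against 17.1% and 15.8%. AQP3 was the only measured gene of the 10 that neither rose nor fell in any comparison. The comparisons share libraries, so they are not separate results. AQP5 passed the minimum of 1 CPM in its day 6 and day 10 libraries only, where it was higher than on day 4. The median difference of all measured genes was 0.00 in the first comparison, -0.01 in the second and 0.01 in the third.

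AQP3, AQP1 and AQP5 took 3 different courses. AQP3, an aquaglyceroporin of the basolateral membrane of many epithelia, had 9005, 14364 and 17379 fragments on days 4, 6 and 10. These are 826, 1191 and 1637 CPM, so each library was higher than the one before. The ratio was 1.44 [1.404 to 1.48] from day 4 to day 6, 1.37 [1.34 to 1.405] from day 6 to day 10 and 1.98 [1.93 to 2.03] over the whole interval. AQP3 therefore lay just inside the 2-fold limit, with a log2 difference of 0.99 between day 10 and day 4, and is counted as neither risen nor fallen. Its size depended on the unit, since TPM went from 1008 to 1515, a log2 difference of 0.59, in a unit in which the median of all genes was -0.31.

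AQP5, the water channel of secretory glands and of the corneal surface epithelium, had 4, 59 and 1476 fragments on the 3 days. Its level went from 0.367 to 4.89 and then to 139 CPM. It rose 13.3-fold [4.94 to 50.5] in the first step and 28.4-fold [21.9 to 37.5] in the second. Over the whole interval 9 of the 12818 measured genes had a larger rise, and the log2 difference was 6.68. The first step rests on 4 fragments in the day 4 library, and with a pseudocount of 5 its log2 difference was 0.88, which is under 2-fold.

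AQP1, a water-selective channel, went the other way. It had 547, 116 and 41 fragments, which is 50.2, 9.62 and 3.86 CPM. It fell 5.22-fold [4.26 to 6.43] between day 4 and day 6 and 2.49-fold [1.73 to 3.65] between day 6 and day 10. From day 4 to day 10 it fell 13.0-fold [9.46 to 18.3], and 30 measured genes had a larger fall. The second fall missed the limit with a pseudocount of 5.

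Fibroblast markers, like AQP1, were highest in the day 4 library, while markers of endothelia went in both directions. Of 10 fibroblast and feeder markers 9 were measured, and between day 4 and day 10 7 of them fell and 1 rose. Over that interval 15.8% of all measured genes fell and 17.1% rose. Their summed level was 3489, 2391 and 1364 CPM on days 4, 6 and 10, with LUM, a keratocyte proteoglycan, at 0 fragments throughout. PDGFRB, a receptor of fibroblasts and pericytes, fell 6.08-fold [4.49 to 8.40] and the matrix proteoglycan DCN 6.00-fold [4.26 to 8.64], while THY1 rose from 19.6 to 76.9 CPM. Of 8 corneal endothelial markers 6 were measured, of which 3 fell and 1 rose over the same interval. ZP4 was at 0 fragments throughout, and N-cadherin (CDH2) went from 167 to 2 fragments. Of 5 vascular endothelial markers 2 were measured, of which KDR rose and CDH5 fell. PECAM1 was at 0 fragments throughout, and the sum was 4.77, 7.71 and 6.40 CPM. The part of any of these cells in the AQP1 result was not tested.

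**Figure D1:**
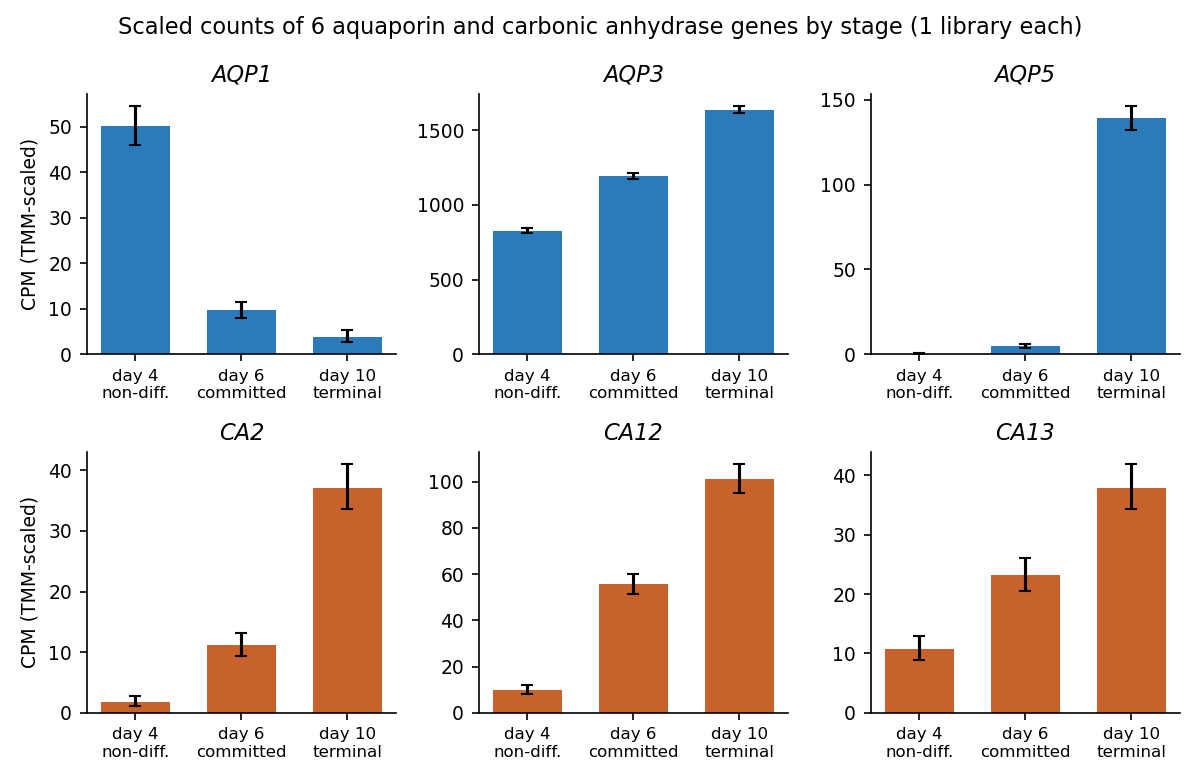
CPM (TMM-scaled) of the 6 measured genes on days 4, 6 and 10, 1 library each, with bars from 0 and exact 95% Poisson counting intervals. AQP1 falls from 50.2 to 3.86 CPM while the other 5 genes are highest on day 10, AQP5 after levels of 0.367 and 4.89 CPM.

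The remaining aquaporins were at or near the counting limit. AQP7, an aquaglyceroporin of fat and other tissues, had 0 fragments in all 3 libraries, where a count of 0 allows up to 3 fragments, or 0.275, 0.249 and 0.283 CPM. AQP7 and AQP3 are direct neighbours in the RefSeq gene order of assembly mOryCun1.1, so the aquaporin with the most fragments lay next to one with none. AQP11, an intracellular aquaporin, had 2, 8 and 7 fragments, and its ratio of 3.59 [0.684 to 35.4] between day 10 and day 4 has an interval on both sides of 1. Of 7 further aquaporins in the tables, AQP4, AQP6, AQP9 and AQP10 had 0 fragments in every library. The lens channel MIP had 3 fragments on day 6 only. AQP8 had 5 and AQP2 8 (rounded from 7.5) on day 10 only. AQP2 and AQP6 flank AQP5 in that gene order, with 8 and 0 fragments on day 10 beside the 1476 of AQP5. Fragments of near-identical sequence could be split between AQP2 and AQP5, and the AQP2 value is uncertain. Of 5 adipocyte markers, looked at beside AQP7, 2 were measured and none rose or fell. They summed to 11.9, 11.03 and 14.3 CPM, with ADIPOQ at 0 fragments.

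The 3 measured carbonic anhydrases of the 10 genes, CA2, CA12 and CA13, were each higher on day 6 than on day 4 and higher again on day 10. CA12, an enzyme anchored in the plasma membrane with its active site outside the cell, had 107, 669 and 1074 fragments, or 9.82, 55.5 and 101 CPM. On the log2 scale the first step was the larger, with a difference of 2.38 against 0.85, and in it CA12 rose 5.65-fold [4.60 to 6.996]. In the second step it was at a ratio of 1.82 [1.65 to 2.01], which is under the limit. From day 4 to day 10 it rose 10.3-fold [8.44 to 12.7].

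CA2, the fast cytosolic enzyme of many fluid-secreting epithelia, had 19, 134 and 394 fragments. It was at 1.74, 11.1 and 37.1 CPM. Unlike CA12, it passed the limit in both steps, with a rise of 6.37-fold [3.93 to 10.9] and then 3.34-fold [2.74 to 4.09]. Over the whole interval it rose 21.3-fold [13.4 to 35.7], and 99 measured genes had a larger rise.

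CA13, another cytosolic enzyme, had 118, 280 and 403 fragments, or 10.8, 23.2 and 38.0 CPM. It rose 2.14-fold [1.72 to 2.68] in the first step, was at a ratio of 1.63 [1.40 to 1.91] in the second, and rose 3.51-fold [2.85 to 4.34] in all. The first call is a narrow one: with a log2 difference of 1.03 it lay just past the limit, and it was lost without TMM factors, with TPM, with a pseudocount of 5 and when only the highest coding sequence was counted. CA13 was still higher on day 6 than on day 4 under each of these settings, though a pseudocount cannot change that direction.

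CA8 and CA14 gave almost no signal. CA8, a catalytically inactive relative that binds the IP3 receptor ITPR1, had 0 fragments in all 3 libraries. ITPR1 itself was at 52.8, 49.8 and 53.8 CPM. Of 8 measured IP3 receptors and calcium store pumps 0 rose and 0 fell in each comparison (median -0.17 between day 10 and day 4). Among all measured genes 8.06% rose and 6.73% fell in the first step, and 8.25% and 7.1% in the second. Over the whole interval the shares were 17.1% and 15.8%. With 8 genes, these counts do not show that the list was more stable than other genes. CA14, a membrane enzyme, had 5, 2 and 4 fragments, and the ratio of day 10 to day 4 was 0.821 [0.163 to 3.81]. A difference of CA14 was not detectable at this depth.

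**Figure D2:**
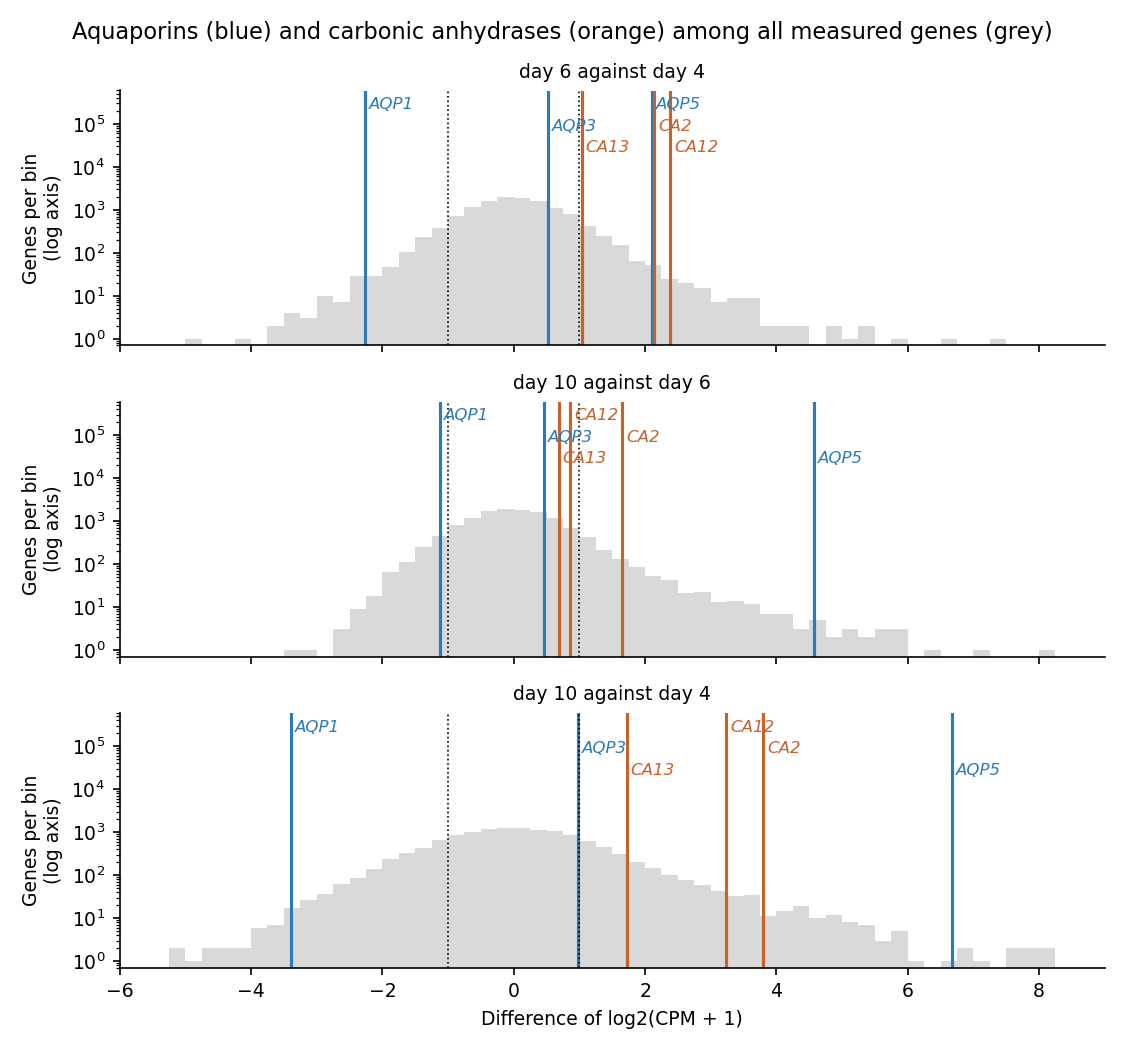
Differences of log2(CPM + 1) of all 12818 measured genes (grey, genes per bin of 0.25, log axis) with the 6 measured aquaporins (blue) and carbonic anhydrases (orange) as lines, and dotted lines at 2-fold. Between day 10 and day 4, AQP5 stands at 6.68, AQP1 at -3.40 and AQP3 at 0.99, close to the dotted line.

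Per length, AQP3 was the most abundant of the 10 genes at every stage, with 1008, 1113 and 1515 TPM. It ranked 236th of the 20536 gene names on day 4 and 179th on day 10. The order below it differed between the stages. On day 4 it was AQP1 (49.7 TPM), CA13 (13.6), CA12 (8.7), CA2 (2.2) and AQP5 (0.7), of which CA2 and AQP5 overlapped in their counting intervals. By day 6 the order was CA12 (37.6 TPM), CA13 (24.0), CA2 (10.9), AQP1 (7.2) and AQP5 (5.6), where AQP1 and AQP5 overlapped. On day 10 AQP5 (150.8 TPM) came next after AQP3, followed by CA12 (67.8), CA13 (37.4), CA2 (35.2) and AQP1 (2.9). CA13 and CA2 could not be ordered on day 10. AQP5 thus moved from rank 11817 to rank 748 of all gene names.

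The families differed in how many genes carried their signal. AQP3 alone made up 95.2%, 98.8% and 90.8% of the summed TPM of the 5 aquaporins in the 3 libraries. The second gene was AQP1 with 4.70% on day 4 and AQP5 with 9.03% on day 10. The sum was 1058, 1126 and 1670 TPM. Among CA2, CA8, CA12, CA13 and CA14 no gene held such a share: CA13 led on day 4 with 54.6%, and CA12 on day 6 with 51.8% and on day 10 with 48.2%, while CA2 went from 8.84% to 25.04%. Their sum was 24.9, 72.6 and 140.6 TPM.

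Other carbonic anhydrases were also measured, and together they held 59.5 of 84.4 TPM of the family on day 4, then 93.8 of 166.4 and 182.0 of 322.6 TPM. CA9, a surface enzyme best known as a target of hypoxia signalling, had 421, 1370 and 2301 fragments. It rose 2.94-fold [2.64 to 3.29] in the first step, was at a ratio of 1.91 [1.78 to 2.04] in the second, and was the most abundant carbonic anhydrase on days 6 and 10 with 63.5 and 121.9 TPM. CA5B, a mitochondrial enzyme, was at 29.4, 35.2 and 68.5 CPM, with a ratio of 1.20 [1.04 to 1.39] in the first step. Per length it was at 30.8, 29.4 and 55.7 TPM. Its CPM rose 2.33-fold [2.04 to 2.67] from day 4 to day 10. CA4, an enzyme held to the membrane by a lipid anchor, had 0, 2 and 35 fragments. Its day 10 level was 11.97-fold that of a floor of 3 fragments on day 4, a ratio that leaves out the counting error of the 35. CA1, CA3 and CA10 had 0 fragments in all libraries, and CA5A, CA6, CA7 and CA11 never had more than 5.

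**Figure D3:**
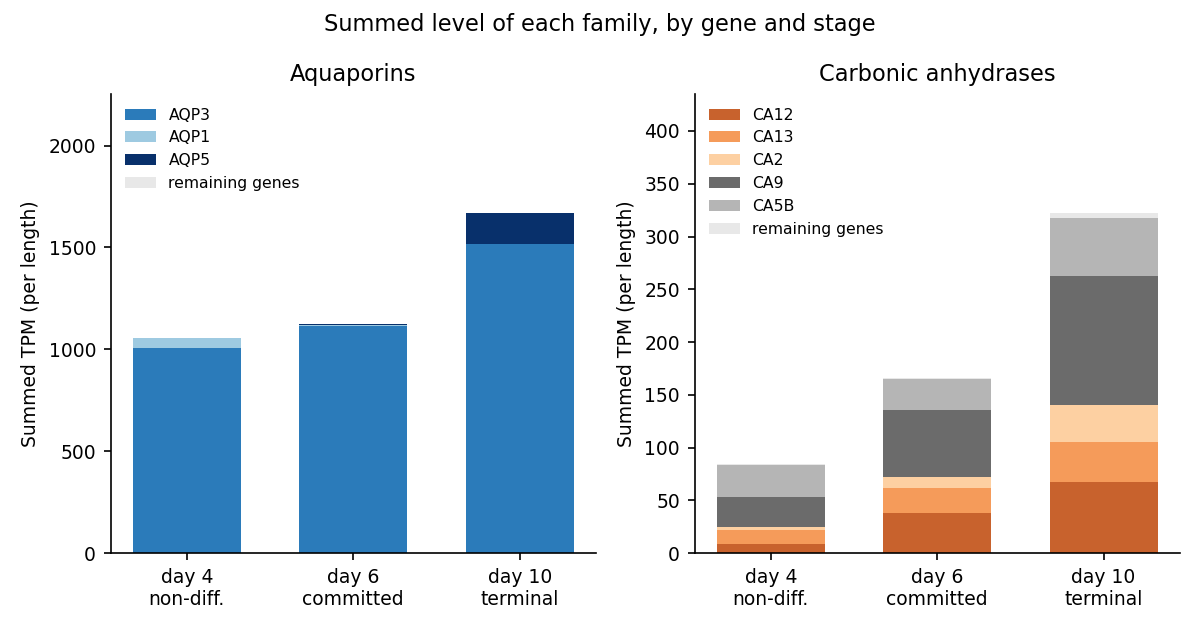
Summed TPM of aquaporins (left) and carbonic anhydrases (right) on days 4, 6 and 10, split by gene, 1 library each. AQP3 fills over 90% of each aquaporin bar, whereas the carbonic anhydrase bar grows from 84.4 to 322.6 TPM in several genes at once, CA9 among them.

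CA13, CA1, CA3 and CA2 lie in 1 cluster in the mOryCun1.1 gene order. The outer genes of the cluster, CA13 and CA2, had the signal given above, and CA1 and CA3, which lie between them, had none. LOC127482582, which lies between CA1 and CA3, had no match by name in the counts. Beyond CA2 the next gene is ATP6V0D2, a proton pump subunit, with 2, 4 and 26 fragments. Erythroid markers, looked at because CA1 and CA2 are red cell enzymes, were measured in 2 of 5 cases and none rose or fell. They summed to 12.7, 10.1 and 12.3 CPM, with CA1 at 0 fragments throughout.

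AQP3, CA12 and CA13 each have 2 coding sequences in the tables, and in each gene both changed in the same direction. For AQP3 these have about 795 and 879 bases, from the authors' RPKM, and both were 1.98-fold higher on day 10 than on day 4. The shorter one held 45.7%, 46.7% and 45.8% of the fragments. The 2 coding sequences of CA12 were 10.2-fold and 10.4-fold higher on day 10 than on day 4, and those of CA13 3.40-fold and 3.65-fold. The counts are split between sequences that share most of their bases, so the shares do not measure isoforms.

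**Figure D4:**
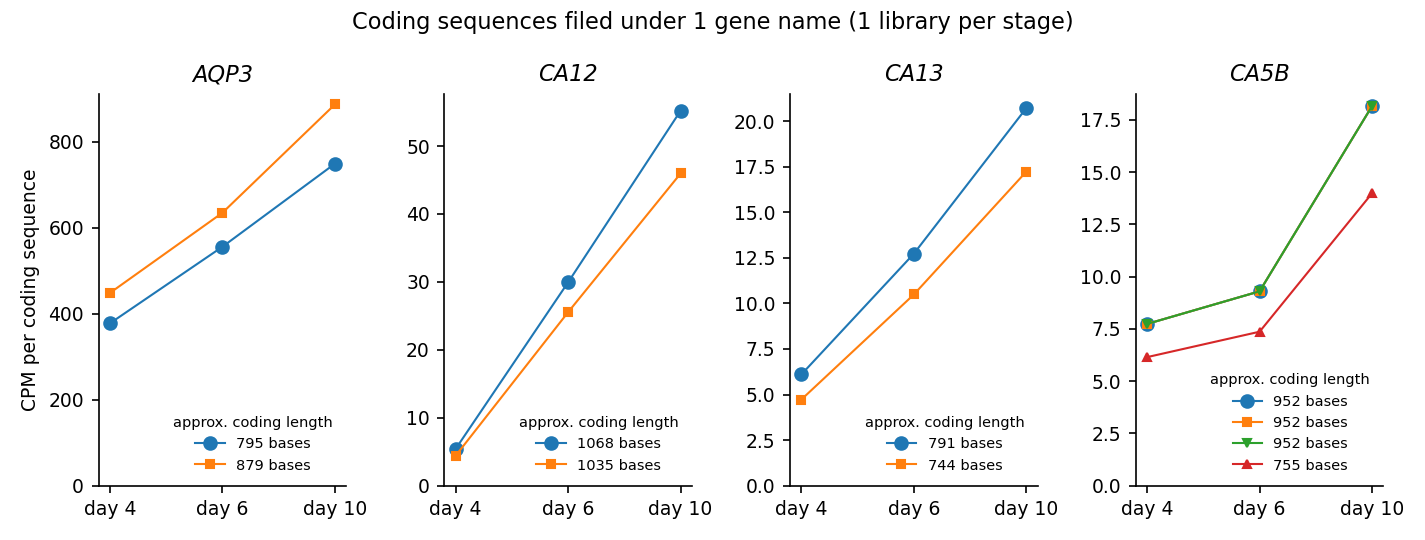
CPM of each coding sequence of AQP3, CA12, CA13 and CA5B on days 4, 6 and 10, 1 library each, labelled by approximate coding length. For AQP3 both lines end 1.98-fold above day 4.

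The genes whose 2 steps lay nearest to each of these genes were looked up among 8094 others with a symbol and at least 10 CPM, by Euclidean distance over the 2 log2 differences between 3 libraries. AQP5 had no close match, with 0 genes within a distance of 0.25. Its nearest were SPINK9, a protease inhibitor, at 0.44, then APOBEC3A at 0.81 and the cytochrome CYP4B1 at 0.90. AQP1 had 3 genes within 0.25, which were the growth factor FGF7 (0.09), the adhesion molecule VCAM1 (0.18) and CCDC86 (0.23). VCAM1 went from 130 fragments on day 4 to 3 on day 10, and FGF7 from 114 to 2. In plain CPM these are falls from 11.9 to 0.283 and from 10.5 to 0.188, both steeper than the 13.0-fold fall of AQP1. They lie near AQP1 because the distance uses CPM + 1. CA12 had 6, led by the binding protein IGFBP2 (0.19), the RNA sensor TLR3 (0.21) and ZBTB16 (0.22). CA2 had 4, led by PPP1R3C, a glycogen-targeting phosphatase subunit, with BPIFC and ITM2A next. CA13 and AQP3 had ordinary profiles, with 100 and 309 genes within that distance. Among the nearest were STAT2 and BBS7 for CA13, and LACE1, NUDT14 and SIKE1 for AQP3. With 3 libraries, many genes fall close together by this measure, and genes near the floor in a library can lie close without sharing a ratio.

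The summed levels of the goblet and of the lacrimal marker lists were highest on day 10, the library in which AQP5 was highest, but single markers differed. Of 5 goblet and conjunctival markers in the tables, a total of 4 were measured. From day 6 to day 10, 3 of them rose, against 8.25% of all measured genes. FCGBP, a mucus protein, went from 2 to 16 to 1562 fragments, AGR2, a secretory pathway protein, from 0 to 1 to 196, and KRT7, a simple epithelial keratin, from 225 to 252 to 1399. The list summed to 22.9, 24.7 and 299 CPM. The goblet cell factor SPDEF had 22, 28 and 19 fragments and FOXA3 0, 1 and 2. The goblet mucin MUC5AC had no entry under that name. Of 5 lacrimal and salivary markers in the tables, a total of 2 were measured, and PIGR, the receptor that carries antibodies across epithelia, rose from 8 to 156 fragments between day 4 and day 10. LPO was at 0 fragments throughout, LTF had 0, 12 and 5 and BHLHA15 4, 1 and 1, and the list summed to 4.50, 4.89 and 19.6 CPM. The part of such cells in the AQP5 result was not tested.

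Carbonic anhydrase makes bicarbonate and protons, and genes that carry these across membranes were looked at next. Of 17 bicarbonate and anion exchangers 12 were measured, and 4 rose and 2 fell from day 4 to day 10 (median 0.56), where 17.1% of all measured genes rose and 15.8% fell. The 2 falls are near that background. SLC4A7, a sodium bicarbonate cotransporter, was at 85.6, 67.0 and 247 CPM, so it rose 3.69-fold [3.41 to 4.00] in the second step. SLC4A4, another cotransporter, was at 8.63, 4.73 and 11.6 CPM, and the anion exchanger SLC4A2 at 116, 99.7 and 113 CPM. The sulfate transporter SLC26A2 rose 2.23-fold [1.88 to 2.64] in the first step. In that step 1 exchanger rose and 0 fell (median -0.22), near the 8.06% and 6.73% of all measured genes. SLC26A6 fell from 10.9 CPM on day 4 to 3.96 on day 10.

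Of 13 proton and lactate exporters in the tables, a total of 11 were measured. Of these 4 rose and 0 fell from day 4 to day 10 (median 0.69), where 17.1% of all measured genes rose and 15.8% fell. The lactate exporter SLC16A3 rose 6.50-fold [5.32 to 7.99] by day 6 and was at 48.9 CPM on day 10. CA9 is often assigned to the hypoxia response list, which did not include it here. That list had 8 of 14 genes up in the first step and 9 over the whole interval, and 0 down (medians 1.15 and 1.48). Among all measured genes 8.06% rose and 6.73% fell in the first step, and 17.1% and 15.8% over the whole interval. EGLN3, a prolyl hydroxylase that is itself a hypoxia target, rose 11.4-fold [9.28 to 14.2] in the first step and was at 8.81, 101 and 185 CPM, and the mitophagy gene BNIP3 was at 46.8, 301 and 488 CPM.

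Of 20 salt channels and pumps of fluid transport in the tables, a total of 17 were measured. From day 4 to day 10, 5 rose and 2 fell (median 0.61), where 17.1% of all measured genes rose and 15.8% fell. These 2 falls are near that background. The risers included SCNN1A, a subunit of the epithelial sodium channel, at 2.47-fold [2.25 to 2.71], and CLCN3, a chloride proton exchanger, at 3.15-fold [2.81 to 3.53]. The chloride channel CFTR had 9, 11 and 48 fragments. SLC12A2, the cotransporter that loads chloride into secreting cells, fell 2.89-fold [2.59 to 3.22], and LRRC8A, a subunit of the volume-regulated anion channel, fell 2.46-fold [2.16 to 2.80]. Of 10 genes of the osmotic stress response 1 rose and 1 fell over the same interval (median 0.04), which is near the shares of all measured genes. TSC22D3 rose 4.51-fold [3.76 to 5.45] and AKR1B1, the sorbitol-making aldose reductase, fell 3.06-fold [2.72 to 3.46]. NFAT5, the transcription factor of that response, was at 78.6, 41.7 and 85.6 CPM.

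AQP3 also carries glycerol, and all 13 genes of glycerol and neutral lipid handling in the tables were measured. From day 4 to day 10, 3 rose and 2 fell (median 0.69), which is near the 17.1% and 15.8% of all measured genes. GK, which phosphorylates glycerol, rose 7.77-fold [5.94 to 10.3], from 5.60 to 43.5 CPM, and LPIN2, a phosphatidate phosphatase, 5.11-fold [4.59 to 5.70]. GPD1L fell 4.69-fold [3.49 to 6.41] and GPAM, the acyltransferase that starts glycerolipid synthesis, 2.17-fold [1.73 to 2.72]. MGLL, which releases glycerol from monoglycerides, was at 9.18, 36.0 and 15.4 CPM, so it was highest on day 6. The corneal differentiation list, for comparison, had 9 of 14 measured genes up and 0 down over the same interval (median 2.90).

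**Figure D5:**
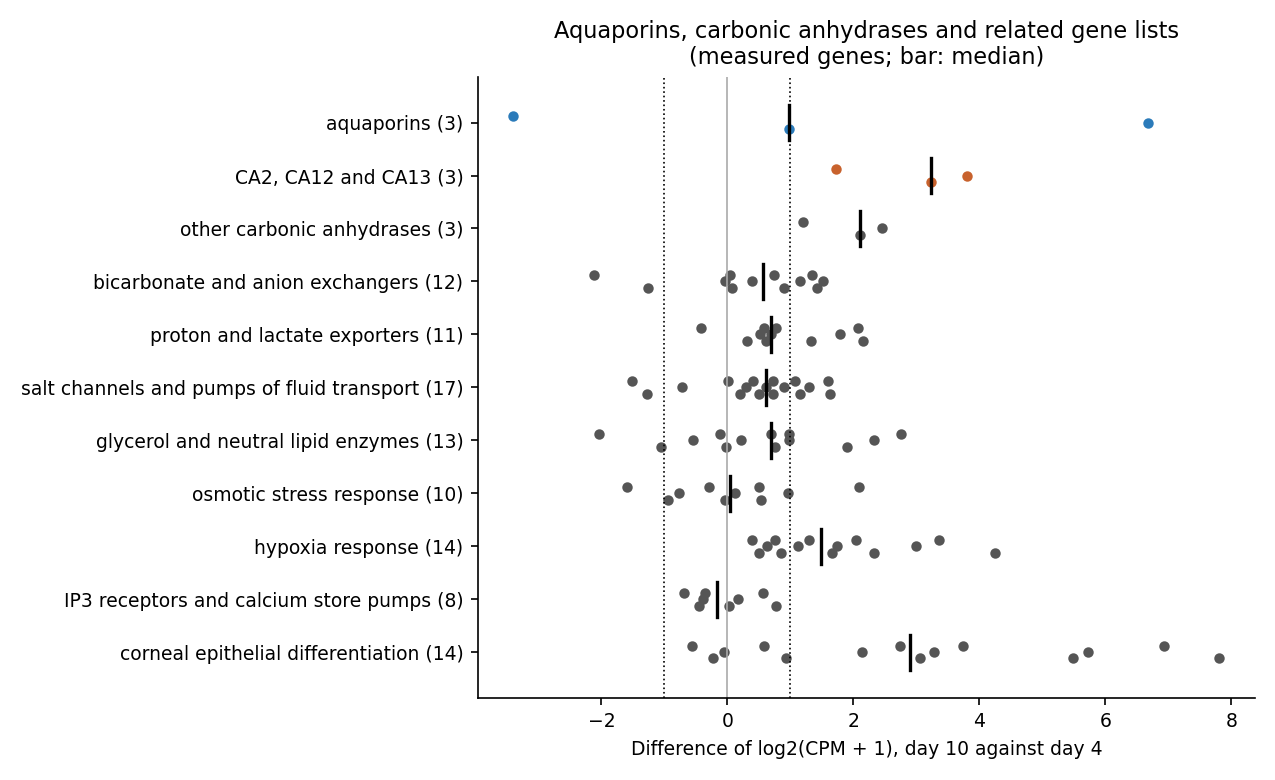
Differences of log2(CPM + 1) between day 10 and day 4 of the measured aquaporins (blue), of CA2, CA12 and CA13 (orange) and of the genes of 9 related lists (grey), with a bar at each median and dotted lines at 2-fold. The 3 aquaporins spread from -3.40 to 6.68, while CA2, CA12 and CA13 lie between 1.72 and 3.80.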

How the data were processed

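RNA was sequenced from 3 samples of RCE1(5T5), 1 per stage, after Trizol extraction and Illumina TruSeq library preparation, per the labels' protocols. The authors deposited fragment and read counts per coding sequence, and the deposited values are expected counts, often fractional; they also gave a raw transcript count, a signal proportional to reads over length in the deposited values and not used here, and FPKM, RPKM and TPM, which the authors normalized for length and depth. The submitters' processing notes name the genome build OryCun2.0. For aligner, counter and strand setting the entry is: not given in the sources used here. Antisense and overlapping genes therefore cannot be told apart. Fragment counts were summed over each gene name and rounded; the scaling (edgeR 4.0.16, R 4.3.3) gave TMM factors of 1.07, 0.958 and 0.974. No test was run, because 1 library per stage leaves no residual spread. The scripts were tested on simulated data.

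The genes and lists were chosen with earlier results of these data known. Named are the 10 genes, all other aquaporins and carbonic anhydrases in the tables, genes from among up to 2 risers and 2 fallers of each list with at least 10 CPM, per comparison, the 3 nearest profiles of each gene with at least 10 CPM, and KRT3, KRT12 and PAX6. Further list genes (KRT5, EPCAM, LTF, BHLHA15, LUM, ZP4, PECAM1, KDR, CDH5, LPO, ADIPOQ, ITPR1, SLC4A2, CFTR, SPDEF, FOXA3, KRT7) and gene neighbours were named after their values were seen. Some genes that the rule would name are not reported here. All 10 genes matched the RefSeq gene table of mOryCun1.1, whose build differs, so no coordinates are given. Alternatives were DESeq2 1.42.0 size factors, no TMM, TPM, FPKM, CPM sums, other pseudocounts, minimums and thresholds, read counts and the highest coding sequence.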

Additional observations from a re-analysis of the deposited data

How the results depend on the processing

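The 18 log2 differences of the 6 measured genes kept their sign in 126 of 126 values under 7 alternatives. Of these, 108 stayed within the counting interval of the reported value. The pseudocount settings cannot change a sign, and all alternatives reuse the same 3 libraries, so the 126 values are not independent. The number of genes past 2-fold was 5, 3 and 5 in the 3 comparisons. With a pseudocount of 5 it was 3 between day 4 and day 6, where AQP5 and CA13 dropped out, and at a 4-fold threshold it was 1 between day 6 and day 10, where AQP5 was left. Without TMM factors the median of all genes was -0.14 between day 4 and day 6 and -0.11 between day 4 and day 10. With TPM it was -0.30 and -0.31, and the numbers of genes up and down were 558 and 1629 in the first of these comparisons, against 1033 and 863, and 1382 and 2945 in the second, against 2190 and 2024. Without TMM factors they were 787 and 1217, and 1921 and 2435. At a pseudocount of 5 the same counts were 472 and 451, then 1324 and 1319. The TPM counts are of the 12331 genes with at least 1 TPM, and the other up and down counts are of 12818 genes.

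The ratio of summed levels depended on the unit. For the aquaporins it was 1.06 (TPM), 1.38 (CPM) and 1.23 (FPKM) between day 4 and day 6, 1.58, 2.03 and 1.87 between day 4 and day 10, and 1.52 with FPKM against 1.48 with TPM between day 6 and day 10. For CA2, CA8, CA12, CA13 and CA14 it was 2.92 with TPM and 3.94 with CPM between day 4 and day 6, and 5.65, 7.73 and 6.73 (TPM, CPM, FPKM) between day 4 and day 10. Among these units only CPM was scaled by the TMM factors given above. The part of each scaling step in these differences was not tested. No paired analysis was possible because there is 1 library per stage. Genes with few fragments (AQP11, CA14, and AQP5 on day 4) are limited by depth.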

Other observations

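AQP1 had few reads per fragment. The ratio of the authors' read count to their fragment count was 1.20 on day 4 and 1.19 on day 6, where the median of the genes with at least 100 fragments was 1.45 and 1.49. On day 4 it was at or below that of AQP1 in 334 of 8243 such genes (4.05%), and on day 6 in 260 of 8698 (2.99%). AQP3 was at 1.54 in both libraries. The fibroblast markers COL1A1 (1.16), COL1A2 (1.19), COL3A1 (1.13), DCN (1.05), PDGFRB (1.19), PDGFRA (1.11) and POSTN (1.11) were lower than AQP1 on day 4. THY1 (1.22) and VIM (1.25) lay between AQP1 and the median. A low ratio was not limited to these markers, as BSG of the proton and lactate exporter list was at 1.01. The cause was not tested.

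NOL6, next to AQP3 on the other side from AQP7, had 1082, 454 and 221 fragments.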
